A study of Mus musculus with 28 samples.

Results

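Small nucleolar RNAs (snoRNAs) were followed in small RNA libraries of mouse sperm. A gene was counted as a member when its symbol began with Snord, Snora or Scarna followed by a digit and it had an exon row in the deposited counts. That gave 116 of the 22642 genes with exon rows: 71 Snord genes of the C/D class, 36 Snora genes of the H/ACA class and 9 Scarna genes. The 28 libraries came in 3 count tables. The wild-type (WT) table held 4 control libraries without alcohol exposure, 4 at a low, 2 at a medium and 2 at a high dose of alcohol, with no amounts stated. The Nrf2-/- table held 4 control libraries without alcohol and 4 libraries from mice exposed to ethanol, so both groups lack Nrf2 in all tissues. In the last table, 4 libraries (flox) came from animals whose Nrf2 alleles are floxed but carry no Cre, and 4 (liver KO) from animals that add an Albumin-Cre transgene to them. Albumin-Cre acts in hepatocytes, so the gene is deleted in the liver and not in the germ line from which the RNA was taken. Strain, age and the number of animals behind a library were not given, and p-values then measure only the spread between these libraries, which may be technical.

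snoRNAs are short, stable RNAs that are mostly trimmed from the introns of host genes. C/D snoRNAs carry the proteins fibrillarin, Nop56, Nop58 and Snu13 and guide ribose methylation of ribosomal and spliceosomal RNA, while H/ACA snoRNAs carry dyskerin, Nop10, Nhp2 and Gar1 and guide pseudouridylation. Scarna RNAs contain one or both kinds of box and act on spliceosomal RNA in Cajal bodies. Mature sperm are nearly silent in transcription, and their small RNA is dominated by tRNA and ribosomal RNA fragments, with a share added by the epididymis. Nrf2 (gene Nfe2l2) activates genes of the antioxidant response.

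The class of a member was taken from its symbol, and the members on which the results turn are printed here from the GENCODE M21 transcripts, 5′ to 3′. Capitals mark the box C motif TGATGA where it begins and ends within the first 30 nt, the last box D motif CTGA within the last 30 nt of C/D genes, and the last ACA within the last 8 nt of H/ACA genes.
Snord85: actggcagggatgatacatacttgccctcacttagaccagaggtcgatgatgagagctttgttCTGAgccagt
Snord104: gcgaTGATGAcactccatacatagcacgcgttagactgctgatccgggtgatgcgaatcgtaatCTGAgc
Snord2: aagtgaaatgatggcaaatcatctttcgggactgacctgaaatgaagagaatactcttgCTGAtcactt
Snord90: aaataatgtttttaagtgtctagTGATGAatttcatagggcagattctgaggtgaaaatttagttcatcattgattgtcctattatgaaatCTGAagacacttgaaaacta
Snord64: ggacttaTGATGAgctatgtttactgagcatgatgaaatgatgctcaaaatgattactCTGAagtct
Snord1b: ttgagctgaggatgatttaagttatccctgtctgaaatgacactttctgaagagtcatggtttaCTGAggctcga
Snord1c: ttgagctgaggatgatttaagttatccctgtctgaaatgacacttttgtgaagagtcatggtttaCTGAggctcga
Snora17: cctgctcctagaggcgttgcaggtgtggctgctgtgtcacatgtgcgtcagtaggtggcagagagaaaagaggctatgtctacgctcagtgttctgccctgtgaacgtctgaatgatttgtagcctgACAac
Snora5c: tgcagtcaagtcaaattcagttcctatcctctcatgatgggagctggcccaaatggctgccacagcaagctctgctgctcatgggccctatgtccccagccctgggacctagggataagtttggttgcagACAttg

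Snord85, Snord104 and Snord2 are shown because they held the most reads of the WT and Nrf2-/- tables, Snord90 because it passed the test in the liver KO comparison, and Snora17 and Snora5c because they came next there. Snord64 had the lowest p in the Nrf2-/- ethanol comparison. Snord1b and Snord1c are shown as near-copies, identical in 74 of 76 aligned positions (97.4%), so their reads may not be separable. On the transcript strand, TGATGA stood in the first 30 nt of 46 of the 71 C/D genes and of 0 of the 36 H/ACA genes. CTGA stood in the last 30 nt of 70 of the C/D genes and 7 of the H/ACA genes, and ACA in the last 8 nt of 34 of the H/ACA genes and 6 of the C/D genes. The exact letters of box C were not found in that window of Snord85, Snord2, Snord1b or Snord1c. Snord90 is longer (111 nt) than Snord85 (73 nt), Snord104 (70 nt) and Snord2 (69 nt). Of the 116 members, 111 lie inside a host gene of the annotation, 82 in a protein-coding host and 29 in a noncoding one, and 31 lie in a ribosomal protein gene. Snord2 lies in Eif4a2 and Snord90 in Rc3h2. Stretches of 20 identical bases with another member occurred in 13 members, and Snord116, Snord116l1 and Snord116l2 had identical counts in every library.

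Depth ran from 1993933 (WT control 3) to 11119711 (WT control 1) counts per library. Of these, 5792 (WT low 2) to 61232 (Nrf2-/- ethanol 4) fell on snoRNA genes. Levels are given as CPM, counts scaled to library size over all feature classes except miRNAs, and they are read within a table. The 14 sperm and spermatid markers were all above 0 in every library of the WT and Nrf2-/- tables, and 13 of 14 were in the flox and liver KO table. Nfe2l2 had 4 to 47 counts in WT libraries, 0 to 20 in Nrf2-/- libraries, 9 to 20 in flox and 0 to 22 in liver KO. At these counts it is no firm check of the labels, and the deleted part of the gene was not given. Some libraries stood apart. Structural RNA rows held 75.8% of all counts of WT control 1, against 22.5% to 31.8% in the other WT libraries. Its TMM scaling factor was 0.435, against 0.908 to 1.33 in the others, and a factor below 1 raises CPM values. In WT control 1 Snord85 held 73.2% of all snoRNA counts (95% Wilson interval 72.2% to 74.1%, counting error only), and the rank correlation of its 89 kept members with the mean of the other controls was 0.629, against 0.898 to 0.9497 for the other 3 controls. Nrf2-/- controls 1 and 2 had summed levels of 19 epididymis epithelium markers of 1882 and 1670 CPM, and controls 3 and 4 had 104 and 105.5 CPM. Their summed sperm and spermatid markers ran the other way, at 234 and 307 CPM in controls 1 and 2 and at 1523 and 2380 CPM in controls 3 and 4.

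Members with a mean of at least 5 counts in a table were kept, 89 in the WT, 99 in the Nrf2-/- and 93 in the flox and liver KO table. Just below that line stood Snora33 and Snord83b (both 4.25 counts) in the WT table, Snord93 (4.5) and Snora23 (4.63) in the Nrf2-/- table, and Snora26 (4.0) and Snora64 (4.63) in the last. Just above it stood Snora65 (5.0) and Snora64 (5.25), then Snord45c (6.13) and Snora33 (6.63), then Scarna10 (5.75) and Snora41 (5.88), in the same order.

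Snord85 held the most counts of any snoRNA in all 8 Nrf2-/- libraries and all 8 flox and liver KO libraries, with 21.5% and 35.7% of the snoRNA counts of those tables. In the WT table it held 19.1% of the pooled counts, but this sum leaned on WT control 1. Snord2 exceeded Snord85 in 6 of the 12 WT libraries, and without control 1 the pooled counts were 21597 for Snord85 and 20589 for Snord2. The share of Snord85 ran from 7.13% to 73.2% over the 28 libraries. Snord85, Snord2 and Snord104 together held 41.4% in the WT and 44.6% in the Nrf2-/- table, and Snord85, Snord104 and Snord55 held 55.2% in the last. The 10 leading genes of each table, all of the C/D class, held 65.4%, 67.4% and 71.0%. Snord2 ranked lower in the flox and liver KO table, where it averaged 182 CPM against 2654 CPM for Snord85. Other abundant C/D members were Snord17, Snord87, Snord95, Snord15b, Snord43, Snord90 and Snord100 in WT libraries. Snord22, Snord55 and Snord15a were among the leading 10 in the Nrf2-/- libraries, and Snord82 and Snord91a in the flox and liver KO libraries. The order of members was alike across tables, with Spearman's rho of 0.782 between WT and Nrf2-/- (89 genes), 0.874 between WT and flox with liver KO (88 genes) and 0.816 between the last pair (92 genes). These are correlations across genes, which share length and sequence between tables and are not independent replicates.

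C/D genes lay above H/ACA genes also per length. The median level of kept members was 15.8 CPM per 100 nt for C/D against 1.63 for H/ACA in the WT table, 65.5 against 11.3 in the Nrf2-/- table and 39.2 against 7.30 in the flox and liver KO table. The most abundant H/ACA genes were Snora81 (7.72 CPM, in Eif4a2 like Snord2), Snora78 (7.38), Snora74a (6.42), Snora16a (5.93) and Snora75 (5.77) in the WT table. Snora81 (90.4 CPM) and Snora78 (75.0) led again in the Nrf2-/- table, followed by Snora21 (45.2), Snora74a (37.8) and Snora24 (29.1). In the flox and liver KO table Snora5c (32.2 CPM), Snora20 (29.8) and Snora17 (19.5) came first, ahead of Snora78 (17.4) and Snora81 (16.9). The leading Scarna genes in each table were Scarna6, Scarna9 and Scarna17. Library preparation selects short inserts, and C/D members had a median length of 76 nt in the WT table against 132 nt for H/ACA members. Whether length set the gap was not tested.

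**Figure D1:**
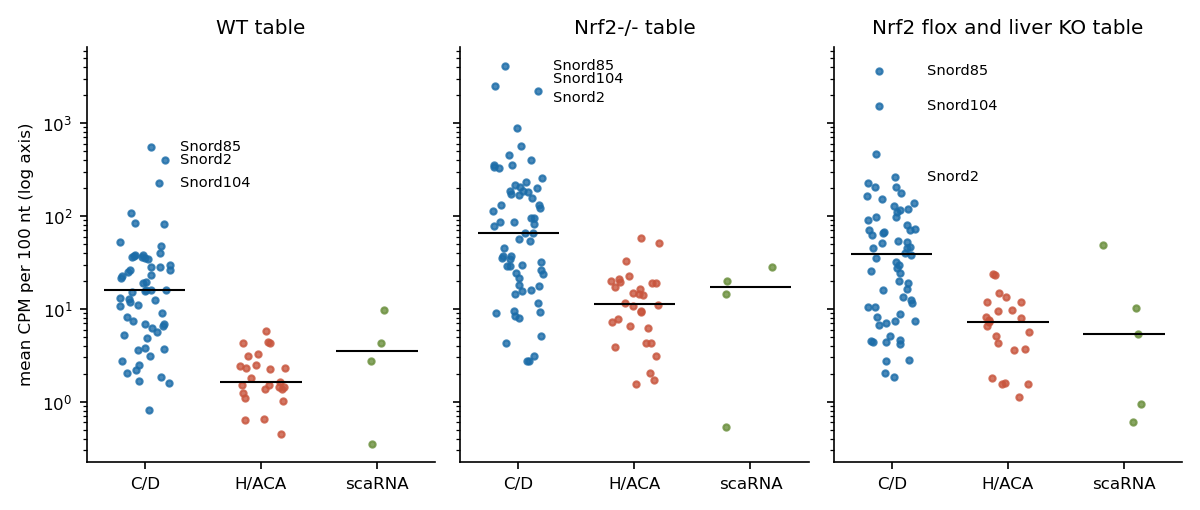
Mean CPM per 100 nt (log axis) of each kept snoRNA gene in the 3 count tables, by class, with black lines at the class medians. C/D genes span the widest range, Snord85 stands highest in each table, and the H/ACA medians (1.63, 11.3 and 7.30) lie below the C/D medians (15.8, 65.5 and 39.2).

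The snoRNA share of all exon counts differed most in the Nrf2-/- table. It was 7.20% ± 1.63 (SD, n = 4) in the controls, from 5.60% to 9.42%, and 16.8% ± 1.16 (SD, n = 4) after ethanol, from 15.4% to 18.1%. The groups did not overlap in this share. Exon counts themselves were 6.44% to 11.5% of all counts in the controls and 5.26% to 7.17% after ethanol. As a share of counts of all classes, the groups overlapped. Control 1 had 40578 snoRNA counts among 4819381 counts, and ethanol 3 had 38284 among 4723662. In WT libraries the mean share was 2.77% in controls, 2.39% at the low, 2.59% at the medium and 2.44% at the high dose. Single libraries ran from 2.22% to 3.73% in controls and from 0.931% (library 2) to 3.36% at the low dose. They ran from 1.99% to 3.20% at the medium and from 1.83% to 3.04% at the high dose. The share was 6.78% ± 1.88 in flox and 6.69% ± 1.77 in liver KO libraries (SD, n = 4 each). No test was made on these sums.

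Summed C/D levels were 9014, 8423, 10468 and 7264 CPM in Nrf2-/- controls 1 to 4 and 17888, 18947, 17614 and 15323 CPM in the ethanol libraries. On this CPM scale each ethanol library stood above each control. The TMM scaling factors were 1.49, 1.53, 0.731 and 0.603 in controls 1 to 4 and 0.775 to 1.17 after ethanol. Scaled to counts of all classes, the groups overlapped. Control 1 had 37919 C/D counts among 4819381 counts, and ethanol 3 had 36747 among 4723662. Summed H/ACA levels were 574, 483, 763 and 409 CPM in the controls and 679, 624, 623 and 877 CPM after ethanol, and these ranges overlapped. The H/ACA share of snoRNA counts was 5.85% ± 0.665 in controls and 3.90% ± 1.01 after ethanol (SD, n = 4 each). In flox libraries the C/D sums were 8766, 4340, 7837 and 7549 CPM, and in liver KO libraries 5761, 8221, 8714 and 5042 CPM, which overlapped. H/ACA sums were 397, 246, 300 and 346 CPM in flox and 182, 239, 296 and 188 CPM in liver KO, where only liver KO 3 reached into the flox range. In such bulk libraries, fewer cells of a type and less RNA per cell cannot be told apart.

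**Figure D2:**
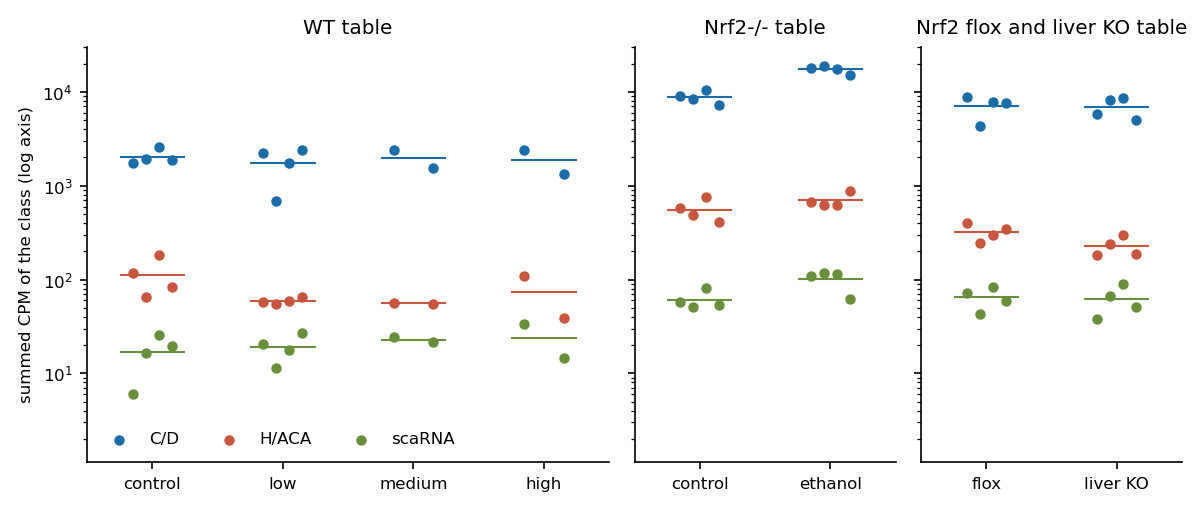
Summed CPM (log axis) of C/D, H/ACA and Scarna genes in each of the 28 libraries by group, with lines at group means. C/D sums of the 4 Nrf2-/- ethanol libraries (15323 to 18947 CPM) lie above those of the 4 controls (7264 to 10468 CPM), and the WT groups overlap.

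The first comparison asked which snoRNA genes differ in sperm of Nrf2-/- mice after ethanol. Most C/D members stood higher in the ethanol libraries, but none passed the test adjusted over all features. edgeR's quasi-likelihood test with Benjamini-Hochberg adjustment called 0 of 92 tested members and 0 of 9661 features (0%). Of these members 20 had an unadjusted p under 0.05, all with a higher level after ethanol, where 4.83% of all features had such a p. DESeq2's Wald test called 1 member, Snord85, against 0.0621% of all features. The log2 change was above 0 for 84 of 92 members (58 of 61 C/D, 23 of 28 H/ACA and 3 of 3 Scarna), while it was above 0 for 35.3% of all features. The median change was 0.87 on the log2 scale for C/D and 0.43 for H/ACA members, against -0.27 for all features tested. In 17 members each ethanol library exceeded each control on the CPM scale, where this held for 2.96% of features. Scaled to counts of all classes, the groups overlapped in Snord1b and Snora69 of these members. Snord1b had 524 counts among 4819381 in control 1 and 484 among 4723662 in ethanol 3. Snora69 had 14 counts among 5947215 in control 2 and 7 among 4091411 in ethanol 2.

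Snord85 was at 1371, 1493, 2143 and 1887 CPM in controls 1 to 4 and at 4377, 4147, 4226 and 4451 CPM after ethanol. The groups lay apart, with a mean of 1724 ± 356 CPM in controls and 4300.3 ± 139 CPM after ethanol (SD, n = 4 each). The log2 change was 1.32 (SE 0.415), with an adjusted p of 0.767 by edgeR and 0.0143 by DESeq2.

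Snord64, an imprinted C/D snoRNA of the Prader-Willi region, had the lowest p. It was at 6.89, 6.10, 3.55 and 5.32 CPM in controls and at 16.6, 24.5, 20.1 and 10.6 CPM after ethanol, without overlap. The log2 change was 1.69 (SE 0.438), with an unadjusted p of 0.00225 and an adjusted p of 0.767 by edgeR. Snord1b had 125, 103, 124 and 130 CPM in controls and 210, 317, 232 and 306 CPM after ethanol. Its near-copy Snord1c had 132, 116, 210 and 162 CPM against 306, 371, 298 and 389 CPM. On the CPM scale both were apart between groups, with log2 changes of 1.14 each. Snord1a from the same noncoding host was at 12.8 to 22.2 CPM in controls and 17.5 to 46.1 CPM after ethanol, which overlapped.

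Snord37, from an intron of the translation elongation factor gene Eef2, had 136, 147, 247 and 76.8 CPM in controls and 342, 383, 360 and 373 CPM after ethanol. Snord38a had 25.2, 38.7, 93.8 and 50.9 CPM against 107, 113, 130 and 180 CPM. Snord87, from the noncoding host Snhg6, had 420, 443, 583 and 539 CPM against 1140, 1227, 1019 and 806 CPM. In these members too the groups did not overlap, with log2 changes of 1.27, 1.35 and 1.08. Snord71 had 26.6, 24.8, 20.4 and 7.32 CPM in controls and 74.5, 63.6, 72.4 and 21.5 CPM after ethanol. Its ethanol 4 value lay among the controls. Snora69 was the H/ACA gene with the lowest p, at 1.66 to 3.11 CPM in controls and 3.51 to 7.44 CPM after ethanol. All of these had an adjusted p of 0.767 by edgeR.

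The 8 members with a log2 change below 0 were Snord90 (-0.51), Snord23 (-0.50), Snora20 (-0.40), Snora61 (-0.21), Snora5c (-0.12), Snora68 (-0.09), Snora65 (-0.06) and Snord16a (-0.01). Their adjusted p by edgeR was 0.790 or more. Snord90 was split within the controls, at 551 and 373 CPM in controls 1 and 2 and at 66.2 and 44.6 CPM in controls 3 and 4, with 133 to 254 CPM in the ethanol libraries. It moved with the epididymis marker sum of those controls, and the part of that sum in its level was not tested.

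**Figure D3:**
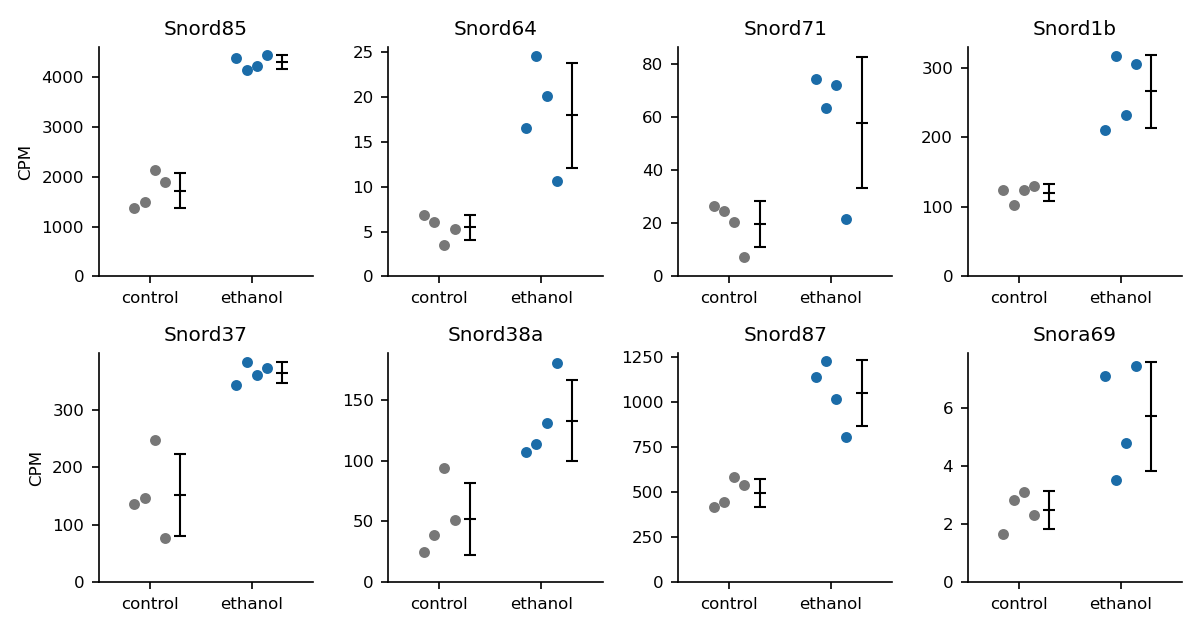
CPM of 8 snoRNA genes in the 4 Nrf2-/- control (grey) and 4 ethanol libraries (blue), with mean and SD in black; each axis starts at 0. Groups do not overlap in 7 panels, and in Snord71 the ethanol library at 21.5 CPM lies within the control range.

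The 4 control libraries were far apart, and the tests depended on them. Ethanol 4 also differed from ethanol 1 to 3. The rank correlation of its 99 kept members with the mean of the other ethanol libraries was 0.916. That of ethanol 1 to 3 was 0.979 to 0.987, and that of the controls with each other was 0.901 to 0.953. Snord2 had 2477 counts in ethanol 4 and 6147, 6212 and 5182 counts in ethanol 1 to 3. Without controls 1 and 2, edgeR's test called 16 of 94 members, all higher, among 22.4% of all features. Without controls 3 and 4 it called 60 of 96, 59 of them higher, among 41.4% of all features. Both omissions were chosen after the data were seen, and the libraries left out were those alike in their marker sums. The summed epididymis markers of the ethanol libraries, 440.5 to 662 CPM, lay between the pairs of controls, as did their sperm marker sums of 476 to 691 CPM. Of the 19 epididymis markers, 7 were above 0 in every library, and Crisp4 and Cst11 were at 0 in all of them. Summed hepatocyte markers were 34.5 to 177 CPM in controls and 88.2 to 322 CPM after ethanol, and 5 of 5 tested had a log2 change above 0 (median 0.90). Smooth muscle and fibroblast markers did so in 7 of 7 cases (median 0.63), at sums of 60.8 to 103 CPM in controls and 99.3 to 173 CPM after ethanol, and edgeR called 0 of either list. The part of other cell types in the snoRNA levels was not tested.

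Host genes gave a reference for these changes. Of 49 tested hosts with an intron row, 48 had a log2 change above 0 after ethanol, with a median of 0.75, and of 47 with an exon row 6 did, with a median of -0.58. None passed edgeR's test. Over all tested features, 2183 of 3132 intron rows were above 0 (69.7%, median 0.34), and 755 of 5328 exon rows outside the snoRNA genes were (14.2%, median -0.50). The members' median of 0.69 thus lay on the side of the intron rows. Whether the intron rows hold reads of snoRNAs without a row of their own was not tested.

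The second comparison asked which snoRNA genes differ in sperm of mice lacking Nrf2 in the liver. Here 1 member fell: Snord90, a C/D snoRNA in an intron of Rc3h2, which encodes an RNA-binding ubiquitin ligase. It was at 204, 112, 239.5 and 224.5 CPM in flox and at 25.1, 31.2, 104 and 29.5 CPM in liver KO libraries. The groups did not overlap, and liver KO 3 came nearest to the flox range. The mean was 195 ± 57.2 CPM in flox and 47.5 ± 38.0 CPM in liver KO (SD, n = 4 each), a log2 change of -2.03 (SE 0.349) with an adjusted p of 0.0301 by edgeR and 0.0359 by DESeq2. It was 1 of 82 members tested, where edgeR called 0.0508% of features, and DESeq2 called 3 members and 0.417% of features. Unadjusted p was under 0.05 for 12 members and 12.4% of features. The log2 change stayed between -2.75 and -1.82 when any 1 library was left out, but the call was lost in 5 of these 8 omissions, where the adjusted p was 0.161 without flox 3, 0.109 without flox 4, 0.209 without liver KO 1, 0.0506 without liver KO 2 and 0.0781 without liver KO 4. Without liver KO 3 the log2 change was -2.75, and 5 members were called where 1.93% of features were (Snora17, Snora20, Snora5c, Snord15b and Snord90).

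The next members by p were H/ACA genes. Snora17 had 32.2, 19.8, 32.8 and 34.0 CPM in flox and 4.43, 6.09, 19.1 and 7.30 CPM in liver KO libraries. Snora5c, in an intron of Tbrg4, had 54.4, 44.9, 39.6 and 45.1 CPM against 11.3, 17.1, 34.0 and 11.3 CPM. Neither overlapped between groups. Their log2 changes were -1.65 (SE 0.352) and -1.30 (SE 0.305), with adjusted p of 0.0651 and 0.0906 by edgeR and 0.0125 and 0.0250 by DESeq2. Snora20, in an intron of the chaperonin gene Tcp1, had 40.0, 29.0, 40.4 and 50.3 CPM in flox and 17.2, 13.3, 36.3 and 11.9 CPM in liver KO. Here liver KO 3 stood within the flox range. Its log2 change was -1.01 (SE 0.311), with an adjusted p of 0.190 by edgeR.

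Scarna2 (log2 change -1.97), Snord17 (-0.82), Snord15b (-0.78), Snord12 (-1.01) and Snora16a (-0.86) were also lower in the mean of liver KO, and Scarna17 (1.15) was higher, with adjusted p of 0.210 to 0.328 by edgeR. Scarna2 had only 3, 4, 10 and 0 counts in liver KO libraries 1 to 4. Snord17 had 73.0, 21.9, 67.4 and 69.2 CPM in flox and 29.0, 38.0, 38.0 and 25.5 CPM in liver KO, with flox 2 below the liver KO libraries. In 5 members each liver KO library lay below each flox library (Scarna2, Snora17, Snora24, Snora5c and Snord90), where 3.89% of features did so, and in 0 members above, where 2.83% did. Of the 82 members 54 had a log2 change below 0, with a median of -0.18, against 0.01 for all features, of which 50.6% were above 0. Exon rows outside the snoRNA genes had a median of -0.18 too, with 38.5% above 0. Without flox 1, 45 of 83 members were above 0 with a median of 0.05, and with exon rows only the median was -0.02 against -0.01 for all features. The median was -0.12 over 59 C/D and -0.42 over 19 H/ACA members, of which 14 were below 0. Without flox 1 the C/D median was 0.13 and without liver KO 4 it was 0.04. The abundant C/D genes Snord85, Snord55 and Snord104 had log2 changes of 0.17, 0.24 and -0.09, and none of the 3 passed edgeR's test.

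Epididymis markers were lower in liver KO beside Snord90, Snora17 and Snora5c. Their sum was 676, 816, 945 and 708 CPM in flox and 326, 358, 595 and 243 CPM in liver KO libraries, and liver KO 3 was again the highest of its group. Of 8 tested markers 7 had a log2 change below 0, and 1 of them, Cd52, passed edgeR's test, while 7 of the 19 were above 0 in every library and Defb20 and Cst11 were at 0 in all. Sperm and spermatid markers summed to 738 to 929 CPM in flox and 900.0 to 1235 CPM in liver KO. Smooth muscle and fibroblast markers had a log2 change below 0 in 7 of 7 cases (median -0.53, 0 called by edgeR, lowest adjusted p 0.199), at sums of 175 to 407 CPM in flox and 155 to 195 CPM in liver KO. The part of these markers in the snoRNA difference was not tested. The Rc3h2 exon row had 9.11 CPM in flox and 5.21 CPM in liver KO, a log2 change of -0.80 with an adjusted p of 0.412 by edgeR.

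**Figure D4:**
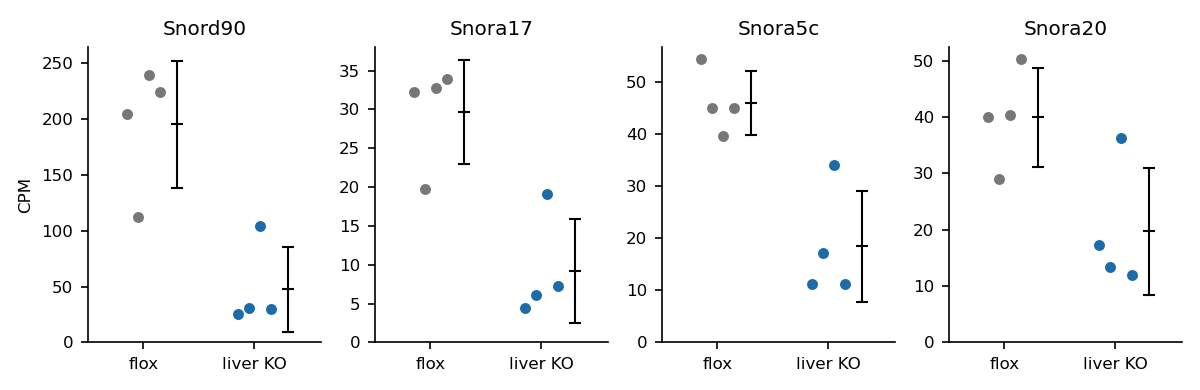
CPM of Snord90, Snora17, Snora5c and Snora20 in the 4 flox (grey) and 4 liver KO libraries (blue), with mean and SD in black; each axis starts at 0. Liver KO 3 is the highest blue point in each panel, and Snord90 alone passed the adjusted test.

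The third comparison asked which snoRNA genes differ in WT sperm by dose of alcohol. At the low dose edgeR's test called 0 of 88 members, where it called 0.0446% of 17930 features, and DESeq2 also called 0 members, against 0.162% of features. Of these members 16 had an unadjusted p under 0.05, 12 of them lower, against 7.47% of features. The classes differed in direction. H/ACA genes had a log2 change below 0 in 22 of 24 cases with a median of -0.79, while C/D genes were above 0 in 40 of 60 cases with a median of 0.28. Over all features 50.6% were above 0, and the median was 0.01. Exon rows outside the snoRNA genes were above 0 in 37.1% of cases (median -0.12). Structural RNA rows were in 23.7% (median -0.33) and intron rows in 66.3% (median 0.17). Without WT control 1 the C/D count above 0 was 24 of 60 and the median was -0.07, while 22 of 24 H/ACA genes stayed below 0 with a median of -0.66. Low-dose libraries mattered too. Of all 88 members 45 were above 0 (median 0.04), against 35 without low 4 (median -0.20) and 52 without low 2 (median 0.23).

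The low-dose members with the lowest p were mostly lower. Snora44 had 5.62, 2.66, 6.70 and 3.98 CPM in controls and 2.45, 1.17, 1.87 and 0.865 CPM at the low dose. Snora78, in the noncoding host Snhg9, had 27.7, 4.33, 10.3 and 7.51 CPM against 3.98, 4.44, 3.17 and 2.94 CPM. The Snora44 groups did not overlap, and those of Snora78 met at control 2. Their log2 changes were -1.49 (SE 0.387) and -1.75 (SE 0.459), each with an adjusted p of 0.190 by edgeR. Snord123 had 25.5, 16.1, 16.96 and 17.7 CPM against 10.2, 10.05, 6.91 and 14.9 CPM, and Snord73a, in the ribosomal protein gene Rps3a1, had 33.3, 35.1, 47.3 and 27.4 CPM against 20.6, 10.3, 17.3 and 26.8 CPM. Both were apart between groups, with a log2 change of -0.86 and -0.92 and an adjusted p of 0.309 by edgeR. With Snora61 these made 4 members with each low-dose library below each control, counting Snora44, Snord123 and Snord73a, where 1.93% of features did so. In 0 members each low-dose library was higher, where 3.30% of features were.

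Snora44, Snora61 and Snora16a share the noncoding host Snhg12. Their log2 changes at the low dose were -1.49, -1.66 and -1.25, while that of Snord99, the C/D gene of the same host, was -0.14. Control 3 was the highest control for Snora61 (7.59 CPM against 1.33 to 2.16) and for Snora16a (22.3 CPM against 4.33 to 6.70). Snora61 had 10, 8, 17 and 9 counts in controls and 5, 8, 5 and 4 counts at the low dose. Snord23 (-2.05) and Snora81 (-0.95) were lower in the mean too, and Scarna17 (1.28) and Snord111 (1.48) were higher, with adjusted p of 0.317 to 0.487 by edgeR.

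The medium and high doses were compared with the same 4 controls. edgeR's test and DESeq2 called 0 of 88 members at each dose, where each called 0% of features, and 7 members at the medium and 3 at the high dose had an unadjusted p under 0.05 by edgeR, against 4.75% and 2.91% of features. At the medium dose 24 of 24 H/ACA genes had a log2 change below 0, with a median of -1.06, and 30 of 60 C/D genes did, with a median of -0.02, where 50.5% of features were above 0. Exon rows outside the snoRNA genes were above 0 in 34.8% of cases (median -0.20). Without WT control 1 the C/D count above 0 was 22 of 60 (median -0.31), and without control 3 it was 39 of 59 (median 0.23). Without medium 1 it was 19 of 64 (median -0.50) and without medium 2 it was 39 of 63 (median 0.31), while H/ACA genes were below 0 in 20 of 22 cases without control 3 and in all but 1 case in the other omissions named here. Both medium-dose libraries lay below each control in 10 members (6.83% of features) and above in 2 (6.41%). At the high dose 19 of 24 H/ACA genes were below 0, with a median of -0.29, and 41 of 60 C/D genes were above 0, with a median of 0.14, where 54.6% of features were above 0. Exon rows outside the snoRNA genes were above 0 in 58.4% of cases (median 0.10). Single libraries turned the directions of both classes. C/D genes above 0 numbered 20 of 60 without WT control 1 (median -0.09) and 14 of 64 without high 1 (median -0.34), and H/ACA genes above 0 numbered 16 of 26 without high 2 (median 0.22). Both high-dose libraries lay below each control in 3 members (2.98% of features) and above in 0 (4.62%). For the mean of the 3 doses 0 of 88 members were called by either tool (0% of features by edgeR, 0.00558% by DESeq2). Of these members 15 had an unadjusted p under 0.05 (4.24% of features), and 24 of 24 H/ACA genes were below 0, with a median of -0.78, where 49.7% of features were above 0. Exon rows outside the snoRNA genes were above 0 in 36.9% of cases (median -0.10). In 0 members did the dosed libraries as a whole lie apart from the controls, where 0.424% of features were higher and 0.106% lower. The lowest p for the mean of doses were those of Snora3 (-0.97), Snora78 (-1.26), Snora17 (-1.36) and Snord73a (-0.70).

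Snora3, in the ribosomal protein gene Rpl27a, was at 4.32, 3.33, 5.80 and 3.98 CPM in controls, at 2.09 and 1.95 CPM at the medium dose and at 1.59 and 1.45 CPM at the high dose. Both doses lay below each control, with log2 changes of -1.05 and -1.44 and adjusted p of 0.942 and 0.999 by edgeR. At the low dose it had 2.75, 4.18, 3.31 and 2.25 CPM, which overlapped with the controls. Snora17 was at 4.75, 2.498, 9.82 and 4.42 CPM in controls and at 1.61 and 0.177 CPM at the medium dose, a log2 change of -2.41 with an adjusted p of 0.942 by edgeR. At the medium dose Snora17 had only 10 counts in library 1 and 1 count in library 2. At the high dose its values were 5.98 and 1.09 CPM, one within the controls and one below. Snora47 (-1.71) and Snora16a (-1.41) had the next lowest p at the medium dose, and Scarna17 (1.15), Snora78 (-1.19) and Snord73a (-0.72) at the high dose. Without high 1 the last 3 log2 changes were 0.47, -2.16 and -1.31, without high 2 those of Snora78 and Snord73a were -0.67 and -0.31, and without control 1 that of Snora78 was -0.35. Without medium 1 the medium-dose change of Snora17 was -4.65, resting on the 1 count of medium 2, and without medium 2 it was -1.59. Doses were not tested against each other, and the interaction with genotype was not tested.

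H/ACA sums in WT libraries were 116, 65.3, 181 and 83.4 CPM in controls and 57.5, 54.3, 59.7 and 65.6 CPM at the low dose. They were 56.9 and 54.5 CPM at the medium and 109.9 and 38.9 CPM at the high dose. Control 3, the library with the fewest counts (1993933), stood highest, and control 2 lay within the low-dose range. When any 1 library was left out, the log2 ratio of low-dose to control sums ran from -1.10 to -0.58. Epididymis markers summed to 491 to 658 CPM in controls and 189 to 470 CPM at the low dose, with 660 and 135 CPM at the medium and 1729 and 380 CPM at the high dose. The high-dose library with the higher H/ACA sum was the one with the higher marker sum. The medium-dose libraries had nearly equal H/ACA sums, 56.9 and 54.5 CPM, at marker sums of 660 and 135 CPM. Control 3 had the highest H/ACA sum of all (181 CPM), while no control exceeded a marker sum of 658 CPM. Red blood cell markers summed to 3.57 to 15.02 CPM in controls and 36.2 to 76.6 CPM at the low dose, and 3 of 4 tested passed edgeR's test. The part of these markers in the H/ACA levels was not tested.

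**Figure D5:**
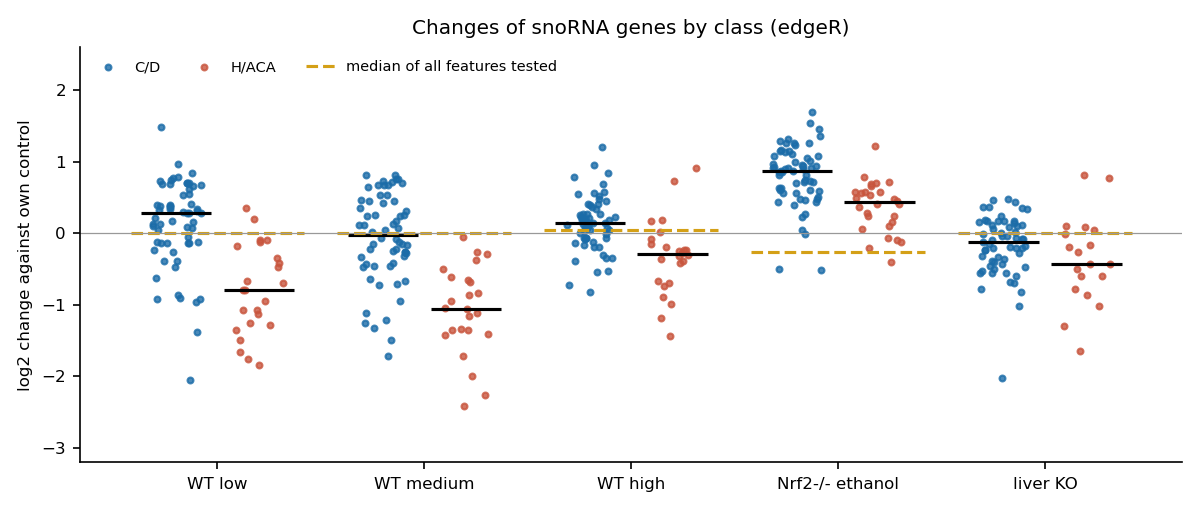
edgeR log2 changes of tested C/D (blue) and H/ACA (red) genes in 5 comparisons, each against its own control, with black lines at class medians and dashed lines at the median of all features tested. The WT doses share their 4 controls. Both class medians lie above the dashed line in the Nrf2-/- ethanol comparison, at 0.87 and 0.43 against -0.27.

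None of the lists of related members held a called gene in any comparison. The 4 members in Rpl13a (Snord32a, Snord33, Snord34 and Snord35a) had log2 changes of 0.40 to 0.85 after ethanol in Nrf2-/- libraries and of 0.54 to 0.74 at the low dose. At the medium dose 3 of the 4 were below 0 (-0.22 to 0.46), and at the high dose they ran from 0.12 to 0.58. In liver KO they ran from -0.19 to 0.47, and edgeR called 0 of 4 throughout. Of the Gas5 host list Snord47 was tested, with log2 changes of 0.92 after ethanol, 0.79, -0.15 and -0.06 at the low, medium and high dose and -0.15 in liver KO. Among snoRNAs needed for cleavage of the ribosomal RNA precursor, Snord22 of the host Snhg1 changed by 0.57 (log2) after ethanol and by -0.68 in liver KO, and Snora73a and Snora73b by 0.24 and 0.29 after ethanol. The spliceosomal RNA guides Snord8, Snord67 and Snord7 had log2 changes of 0.59, 0.44 and 0.27 after ethanol. None of these passed edgeR's test, with adjusted p of 0.412 or more.

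Exon reads of the snoRNA protein genes were few. These libraries select short inserts, so such reads do not give the level of whole transcripts. Summed exon levels of the 6 C/D protein genes were 3.46 to 9.37 CPM in WT, 8.44 to 21.2 CPM in Nrf2-/- and 7.38 to 17.6 CPM in flox and liver KO libraries. At the low dose edgeR's test covered 3 C/D protein genes (Fbl, Nop58 and Nhp2l1), 2 H/ACA protein genes (Gar1 and Nop10) and 6 assembly factors, and 0 of them were called. Gar1 had a log2 change of 0.61, Nop58 of -0.36 and the assembly chaperone Nolc1 of -0.56. Of the 32 protein-coding hosts in the list, 28 of 28 tested exon rows had a log2 change below 0 after ethanol in Nrf2-/- libraries (median -0.76), where 4573 of 5328 exon rows outside the snoRNA genes were below 0. At the low dose 28 of 29 were below 0 (median -0.47), where 5621 of 8934 such rows were, and at the high dose 26 of 29 were above 0 (median 0.31), where 5216 of 8934 were. At the medium dose 25 of 29 were below 0 (median -0.80), where 5823 of 8934 were. In liver KO 24 of 28 were below 0 (median -0.52), where 3220 of 5238 were. edgeR called 0 hosts of this list in each.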

How the data were processed

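Small RNA of mouse sperm was sequenced in 28 libraries (Trizol and the Qiaseq small RNA kit, per the labels' protocols). The authors deposited raw read counts per annotated feature in 3 tables. Aligner, counter and build are not given in the sources used here, and no coordinates are printed. Rows of 1 class that carry the same feature name were added up. All classes except miRNAs were fitted together in R 4.3.3 with edgeR 4.0.16 (filterByExpr, TMM, quasi-likelihood F test, two-sided, Benjamini-Hochberg adjustment over all features, threshold 0.05). The 12 WT libraries shared 1 fit, and the other tables had 8 libraries each. DESeq2 1.42.0 and the settings named in the closing section were alternatives. CPM use TMM-scaled library sizes. Intervals are 95% Wilson intervals and cover counting error only. Sequences, lengths and hosts come from GENCODE M21, with 108 members matched by RefSeq accession and 8 by symbol. The code was tested on simulated data. Python 3.11.15 with pandas 2.3.3, scipy 1.17.1, matplotlib 3.10.9 and Biopython 1.88 was used otherwise. The members and lists were chosen with earlier results of these data known. Named were the 10 Snord, 5 Snora and 3 Scarna genes most abundant per table, the called members and those with the lowest p per comparison (10 for low dose, Nrf2-/- ethanol and liver KO, otherwise 4), listed members with a mean of at least 5 counts, those nearest that line, and 2 to 4 tested genes per protein or host list. Snord99, Snora68, Snora65 and Snord16a were named after their values were seen.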

Additional observations from a re-analysis of the deposited data

Results flagged for a closer look

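In groups of 4 libraries, a value was marked when its gap to the nearest of the others exceeded Dixon's 95% critical share of the group's range. Of 168 groups of named members and class sums, 17 were marked, and chance marks about 1 in 20 groups. Nrf2-/- control 3 was the highest control for Snora21 (62.7 CPM, next 25.7), Snord104 (1646 CPM, next 1005), Snord95 (445 CPM, next 243), Snord1a (22.2 CPM, next 13.3) and Scarna9 (18.7 CPM, next 9.31). WT control 3 was the highest control for Snora16a (22.3 CPM, next 6.70), Snora61 (7.59 CPM, next 2.16) and Snord23 (21.4 CPM, next 5.60). WT control 1 was highest for Snord123 (25.5 CPM, next 17.7) and lowest for Snord43 (12.5 CPM, next 86.7). Among low-dose libraries, Snord2 was lowest in library 2 (106 CPM, next 286) and Snord23 was highest in library 1 (3.98 CPM, next 1.44). Flox 2 was lowest for Snora17 (19.8 CPM, next 32.2) and Snord17 (21.9 CPM, next 67.4), and flox 3 was highest for Scarna2 (10.5 CPM, next 5.05). Liver KO 3 was highest for Snord90 (104 CPM, next 31.2). The summed Scarna level was lowest in Nrf2-/- ethanol 4 (61.9 CPM, next 109).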

How the results depend on the processing

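For the low dose, 6 members were called without a filter on low counts, among 160 of 45283 features, and 1 (Snora44) with a replicate block, among 42 of 17930 features, against 0 otherwise. Without a filter 2 members were called at the medium dose, 1 at the high dose and 5 for the mean of the doses, among 54, 21 and 55 of 45283 features. For Nrf2-/- ethanol DESeq2 called 1 and the omission of 2 controls called 16 or 60. For liver KO, the threshold of 0.1, DESeq2, no filter and the replicate block each called 3 members, among 25, 41, 75 and 27 features in that order (39167 tested without a filter, 9837 otherwise), and leaving out 1 library gave 0 to 5. In the other comparisons leaving out 1 library gave 0. The replicate block changed no other count of called members. With it, 42 of 60 C/D genes were above 0 at the medium dose (median 0.20). Over all 88 members the WT median went from 0.04 to -0.07 at the low and from -0.26 to 0.10 at the medium dose. It went from 0.07 to 0.30 at the high dose and from -0.05 to 0.16 for the mean of doses. Numbers shared between groups were not treated as pairs in the main fit. Of the libraries, 7 of 12 WT, 1 of 8 Nrf2-/- and 2 of 8 flox and liver KO correlated best with their own number. Between WT groups the median correlation was 0.18 for the same number and -0.08 otherwise. Whether these are pairs was not tested. Named log2 changes were picked by a low p in these same data. The recomputed fits share most libraries and the threshold of 0.1 repeats the main fit, so a kept direction was nearly fixed in advance. The named changes kept their direction in 624 of 624 recomputed values, of which 35 gained and 5 lost a call. Their size leaned on 1 library in places: without WT control 1 Snora78 was -0.94 at the low dose and -0.43 for the mean of doses, without WT control 3 Snora16a was -0.58 at the low and -0.74 at the medium dose and Snord23 -1.29 at the low dose, without medium 1 Snora17 was -2.10 for the mean of doses, and without flox 1 Snora16a was -0.54 and Snord12 -0.59 in liver KO. Of 153 recomputed class sums 5 moved by more than 1 SD between libraries. These were the log2 ratio for C/D after ethanol in Nrf2-/- (0.63 scaled to counts of all classes and 1.26 scaled to exon counts), that for Scarna genes without the leading gene (0.33), and those at the high dose, where leaving out 1 library gave -0.61 to 0.23 for C/D and -1.52 to -0.020 for H/ACA. With library size taken as the total of every class, the median of all features after ethanol was -0.53, 54 of 61 C/D and 17 of 27 H/ACA members were above 0, and edgeR called 0.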
